A study of Mus musculus with 10 samples.

Results

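The 39 genes described here encode the contractile filaments of heart muscle cells and the structures that hold those filaments in register. They were taken by gene symbol, 39 of 46786 genes in the 3-month table and 39 of 46977 genes in the 12-month table. They comprise 7 thick-filament genes, 10 thin-filament genes, 5 genes of titin and the M-band, and 17 genes of the Z-disc and its partners. In a sarcomere, myosin of the thick filaments pulls on actin of the thin filaments once calcium binds the troponin complex. Thin filaments are crosslinked at the Z-disc, thick filaments at the M-band, and the giant protein titin spans from one to the other. The adult mouse ventricle uses Myh6 as its main myosin heavy chain, and a shift toward the fetal chain Myh7 is a widely used mark of cardiac stress in rodents.

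RNA sequencing was done on dissected mouse hearts labelled as knockout or control for Prdm16, a zinc-finger transcriptional regulator, at 2 ages. The groups were 3-month Prdm16 knockout (3 libraries), 3-month control (3), 12-month Prdm16 knockout (2) and 12-month control (2). The labels give no strain, sex, allele, Cre driver or control genotype, and do not say which chambers were taken or whether animals were pooled. Strand-specific poly(A) libraries were made at 3 months, whereas the 12-month libraries were prepared at another institute, so levels were compared only within an age. Values are FPKM, a unit that divides fragment counts by transcript length and by sequencing depth. Differences are knockout-labelled minus control on the log2(FPKM + 1) scale, which understates those of low genes, and were tested with limma and Benjamini-Hochberg adjustment over all genes that averaged 1 FPKM or more at that age. Nothing states that the libraries are separate animals, so each p-value reflects the spread between these libraries, which may be technical.

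Several features of the libraries are given ahead of the values, and their part in the differences of the members was not tested. Prdm16 stood at 1.43, 0.760 and 2.03 FPKM in the knockout-labelled libraries of 3 months, against 1.44, 2.23 and 1.61 FPKM in controls, and at 4.02 and 3.58 FPKM against 5.05 FPKM or more at 12 months, so it did not separate the labels at 3 months. All 12 cardiomyocyte markers, none of them a member, were on average above the expression minimum at both ages. Ryr2 was listed at 0 FPKM in control replicate 2 of 3 months, against 25.9 and 29.1 FPKM in the other 3-month controls. The sum of the 12 overlapped between the labels at 3 months. At 12 months that sum was higher in FPKM (25347 to 27316 FPKM in knockout-labelled libraries, against 22738 to 23013 FPKM in controls). By limma 9 of 12 genes were above 0 and 0 passed the test, with 1 at an unadjusted p under 0.05. Summed FPKM over all genes was itself higher at 12 months, at 1070020 and 1171100 in knockout-labelled libraries against 890181 and 897425 in controls. The marker sums here and below are not shares of it, and their direction after rescaling to TPM was not tested. At 12 months the fibroblast sum was lower (786 to 887 FPKM, against 1090.1 to 1099 FPKM in controls; 6 of 8 genes below 0, 0 past the test and 6 at an unadjusted p under 0.05), and so was the smooth muscle sum (414 to 464 FPKM, against 555 to 557 FPKM; 9 of 10 below 0, 0 past the test). Both overlapped at 3 months. The endothelial sum was higher at 3 months (726 to 836 FPKM, against 629 to 724 FPKM in controls) and at 12 months (939.5 to 1602 FPKM, against 826 to 832 FPKM), although 3 of its 7 genes were above 0 at each age, and the immune sum overlapped at both. The skeletal sum was higher at 3 months (43.5 to 62.2 FPKM, against 24.3 to 32.8 FPKM in controls; 4 of 4 tested genes above 0, 0 past the test) and at 12 months (444 to 520.1 FPKM, against 190 to 194 FPKM; 3 of 5 tested above 0, Acta1 past the test), while its markers Tnnc2, Myh1 and Myh4 were below 1 FPKM in every library. The 3-month sum lacks Acta1, which made up most of the 12-month sum (455 and 410 FPKM, against 131 and 127 FPKM in controls). Of the other tested skeletal markers at 12 months, Pvalb was higher, Tnni2 was lower, and Mylpf and Casq1 overlapped. The summed atrial markers were higher in the knockout-labelled libraries at 3 months (12701 to 29473 FPKM, against 935 to 6570 FPKM in controls). There 11 of 12 genes were above 0 and Nppa passed the test. At 12 months the sum was again higher (14501 to 16603 FPKM, against 6543 to 6699 FPKM), with 7 of 12 above 0. By limma 0 passed there, with 5 at an unadjusted p under 0.05. Nppa alone made up most of that sum in every knockout-labelled library (11824, 19851 and 16225 FPKM at 3 months, 15104 and 11263 FPKM at 12 months). Of the 12 atrial markers, only Nppa, Stard10, Fgf12 and Clu were apart at 3 months, and the others overlapped. Several varied widely within a label there, as Myl7 did (113, 2568 and 891 FPKM in knockout-labelled libraries, against 84.2, 39.4 and 779 FPKM in controls). At 12 months 5 of the 12 were below 0. Among these, Myl4, Myl7, Sln and Bmp10 had both knockout-labelled libraries below both controls. The summed red cell markers were higher at 3 months (2081 to 3111 FPKM, against 818 to 1113 FPKM in controls) and lower at 12 months (1956 to 2157 FPKM, against 10647 to 10783 FPKM), with 5 of 5 tested genes past the limma test at each age. Xist was at most 0.0911 FPKM in the 12-month knockout-labelled libraries and at least 31.0 FPKM in the controls, while all 6 libraries of 3 months had at most 0.490 FPKM, so genotype and sex-linked expression cannot be told apart at 12 months. The 12-month controls were closer to each other than any other pair of libraries (robust SD of the log2 ratio 0.0971, against 0.246 to 0.443 in the other 12-month pairs). Their reads differed by slightly more than sampling noise (chi-square per degree of freedom 2.13, against 67.0 to 137 in the other 12-month pairs), which does not show that they came from separate hearts. They were fitted as the 2 samples the labels list, and also counted as 1 library. Knockout replicate 2 stood apart at 3 months (robust SD 0.285 to 0.537 from the other 5 libraries). Reads per library were 26.3 and 21.6 M in the 12-month knockout-labelled libraries and 29.6 and 31.2 M in the controls, and are unknown at 3 months. In tissue RNA, fewer cells of a type and less RNA per cell cannot be told apart.

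At 3 months most sarcomere genes lay within the spread of the libraries. Of the 39 members, 37 passed the expression minimum (Myom3 and Neb did not). By limma 0 of 37 passed the test after Benjamini-Hochberg adjustment, with 0.746% of all genes called, and the lowest adjusted p was 0.118, for Tcap. At an unadjusted p under 0.05 there were 7 members, against 18.2% of all genes. The fitted difference was above 0 for 22 and below 0 for 15, with 65.0% of all genes above 0. Its median was 0.09 against 0.09 over all genes tested, and rescaling to TPM or by median-of-ratios made that split 18 and 19. Without Tnni1, whose control mean was below the minimum, it was 21 of 36. The knockout-labelled and control libraries did not overlap in 9 tested members, 8 higher (21.6% of those tested, against 20.1% of all genes) and 1 lower (2.70%, against 4.6%).

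At 12 months 39 of 39 members were tested and 0 were called by limma, with 0.395% of all genes called and a lowest member adjusted p of 0.133, for Lmod2. At an unadjusted p under 0.05 there were 13 members, against 13.6% of all genes. The difference was above 0 for 28 and below 0 for 11, with 51.5% of all genes above 0, and its median was 0.19 against 0.01 over all genes. Rescaling to TPM made the split 12 and 27 and the median −0.13, against −0.27 over all genes on that scale, whereas median-of-ratios rescaling made it 26 and 13. The groups did not overlap in 22 members that were higher (56.4%, against 27.3% of all genes) and in 5 that were lower (12.8%, against 23%). The 22 include Neb and Myom3, which reached the expression minimum only through the knockout-labelled group. Among the 37 members with both group means at the minimum, 26 were above 0 with a median of 0.16, 20 were apart and higher (54.1%, against 27.2% of all such genes) and 5 apart and lower (13.5%, against 22.5%). Leaving out knockout replicate 1 gave 27 called members amid 4409 called genes, and leaving out knockout replicate 2 gave 11 amid 654. With 1 knockout-labelled library left, the spread in those fits comes from the 2 near-identical controls alone, and the lone library is assumed to vary as little as they do. Leaving out either control, or counting the near-identical controls as 1 library, gave 0.

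**Figure D1:**
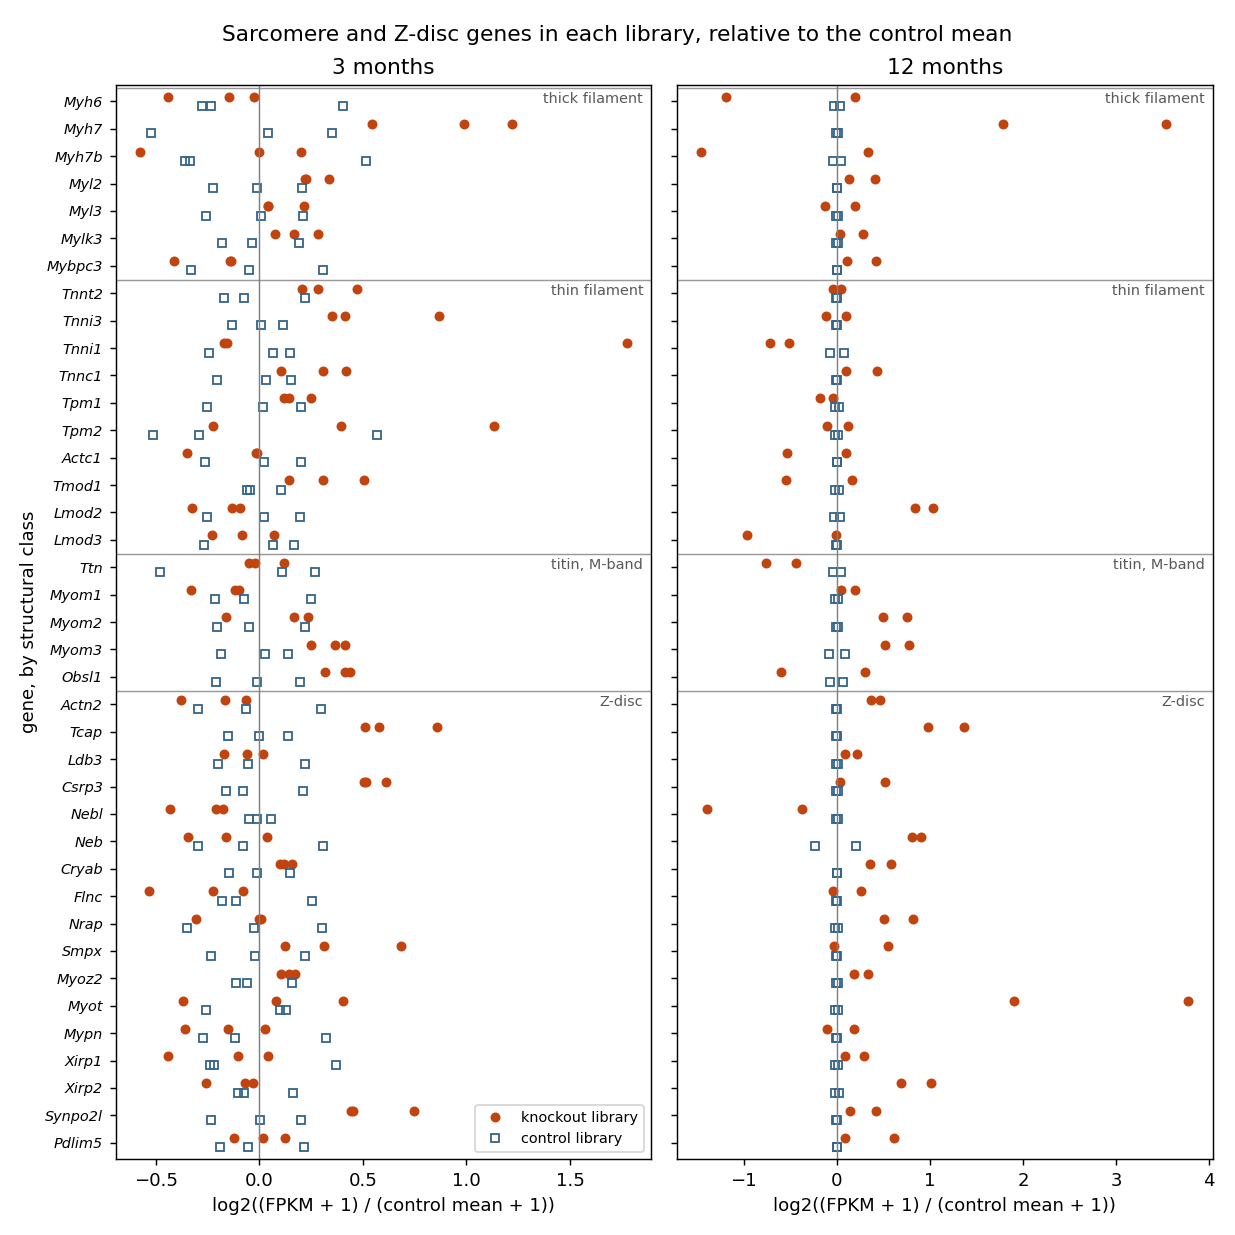
Level of each of the 39 genes in each library relative to the control mean of its age (x axis, log2 of FPKM + 1 over the control mean + 1), by structural class, with filled circles for knockout-labelled and open squares for control libraries; the x scales of the 2 ages differ. The 12-month control squares lie almost on top of each other, and Myh7 and Myot reach furthest to the right at 12 months.

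Among the thick-filament genes the heavy chain Myh7 stood out at both ages. It had 16.6, 11.9 and 19.7 FPKM in the knockout-labelled libraries of 3 months, against 10.3, 8.14 and 5.16 FPKM in controls. Each knockout-labelled library was above each control, and the means were 16.1 ± 3.91 and 7.87 ± 2.58 FPKM (SD, n = 3 each), a 2.04-fold ratio. The difference of 0.96 (SE 0.24) did not pass (limma, Benjamini-Hochberg adjusted p = 0.122). At 12 months Myh7 had 43.3 and 147 FPKM in knockout-labelled libraries, against 11.9 and 11.7 FPKM in controls, an 8.08-fold ratio of means. The knockout-labelled libraries were both above the controls and far from each other, and the difference of 2.66 (SE 0.62) did not pass (limma, adjusted p = 0.252).

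Myh6, the main adult heavy chain, overlapped between the groups at both ages. It had 1963, 1597 and 2131 FPKM in knockout-labelled libraries of 3 months, against 1848, 2873 and 1793 FPKM in controls (−0.17, SE 0.22; limma, adjusted p = 0.715). At 12 months Myh6 had 4754 and 1813 FPKM in knockout-labelled libraries, against 4052 and 4224 FPKM in controls (−0.49, SE 0.50; limma, adjusted p = 0.674), so that 1 knockout-labelled library lay above both controls and the other below them. As a percent of Myh6 in the same library, Myh7 was 0.846, 0.746 and 0.925% in knockout-labelled libraries of 3 months and 0.558, 0.283 and 0.288% in controls. At 12 months the ratio was 0.911 and 8.13% in knockout-labelled libraries and 0.293 and 0.278% in controls, so the ratio did not overlap at either age. Myh6 and Myh7 are near-identical neighbours on chromosome 14 (GRCm38, minus strand, 54941921 to 54966927 and 54970684 to 54994626), and reads could be split between them. An antisense RNA, Mhrt, overlaps exons of Myh7, and whether strand was used in counting is not stated.

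The ventricular regulatory light chain Myl2, the most abundant member, had 10077, 9341 and 9288 FPKM in knockout-labelled libraries of 3 months, against 9207, 7909 and 6833 FPKM in controls (0.27, SE 0.18; limma, adjusted p = 0.447). It had 26368 and 31941 FPKM at 12 months, against 24005 and 23974 FPKM in controls (0.27, SE 0.16; limma, adjusted p = 0.514). The groups did not overlap at either age, by a gap that was small beside the level. Of the other thick-filament genes, the light chain Myl3, the myosin light chain kinase Mylk3, the slow-type heavy chain Myh7b and the myosin-binding protein Mybpc3 ran from −0.21 (Mybpc3) to 0.18 (Mylk3) at 3 months, and each overlapped. At 12 months they ran from −0.56 (Myh7b, overlapping) to 0.27 (Mybpc3), with Mylk3 and Mybpc3 above both controls. The class medians were 0.11 at 3 months (4 of 7 above 0) and 0.16 at 12 months (5 of 7; −0.17 after rescaling to TPM).

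Of the thin-filament genes 7 of 10 were above 0 at 3 months, against 65.0% of all genes, with a median of 0.30 against 0.09. Rescaling to TPM made that median 0.20, against 0.0022 over all genes. Leaving out knockout replicate 2 made it 0.16, against 0.065 over all genes. The thin-filament genes had no common direction at 12 months (4 of 10, against 51.5% of all genes, median −0.06, or −0.38 after rescaling to TPM). Tnni3, the adult cardiac inhibitory troponin, had 6926, 9503 and 6641 FPKM in knockout-labelled libraries of 3 months, against 5626, 5236 and 4755 FPKM in controls. Its groups did not overlap, and the difference of 0.55 (SE 0.19) did not pass (limma, adjusted p = 0.200). The 12-month values of Tnni3 were 10170.2 and 11766 FPKM in knockout-labelled libraries, on either side of the controls at 11049.5 and 10946 FPKM. Tnni1, the fetal and slow-muscle form, was near the expression minimum. It had 0.567, 5.04 and 0.583 FPKM in knockout-labelled libraries of 3 months, against 0.955, 0.492 and 0.844 FPKM in controls, so it entered the test through knockout replicate 2 alone. At 12 months Tnni1 had 1.47 and 1.15 FPKM in knockout-labelled libraries, below the controls at 2.34 and 2.71 FPKM (−0.61, SE 0.17; limma, adjusted p = 0.282).

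Actc1, cardiac alpha-actin, had 6307, 4984 and 6281 FPKM in knockout-labelled libraries of 3 months, against 6462, 7313 and 5301 FPKM in controls (−0.11, SE 0.19; limma, adjusted p = 0.786). At 12 months Actc1 had 8206 and 5296 FPKM in knockout-labelled libraries, on either side of the controls at 7687 and 7660.1 FPKM (−0.22, SE 0.25; limma, adjusted p = 0.709). Tropomodulin Tmod1, which caps the pointed end of actin, had 90.0, 116 and 101 FPKM in knockout-labelled libraries of 3 months, against 78.7, 87.5 and 78.0 FPKM in controls (0.32, SE 0.13; limma, adjusted p = 0.256). Its groups did not overlap at 3 months, but at 12 months the knockout-labelled libraries had 315 and 193 FPKM, around the controls at 277 and 286 FPKM (−0.19, SE 0.26; limma, adjusted p = 0.757). The troponin genes Tnnt2 and Tnnc1, the tropomyosins Tpm1 and Tpm2 and the leiomodin Lmod3 overlapped at 3 months, between −0.07 (Lmod3) and 0.51 (Tpm2). At 12 months they ran from −0.49 (Lmod3) to 0.26 (Tnnc1). Tnnc1 lay above both controls and Tpm1 and Lmod3 below them (Lmod3 at 54.1 and 27.3 FPKM in knockout-labelled libraries, against 54.6 and 54.1 FPKM in controls). Lmod2, the other leiomodin, is described with the difference between the ages.

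In the M-band, the myomesin Myom2 had 171, 136 and 180.1 FPKM in knockout-labelled libraries of 3 months, against 148, 178 and 132 FPKM in controls (0.09, SE 0.16; limma, adjusted p = 0.802). At 12 months Myom2 had 633 and 756 FPKM in knockout-labelled libraries, against 451 and 445 FPKM in controls. That 1.55-fold ratio had groups well apart, yet the difference of 0.62 (SE 0.14) did not pass (limma, adjusted p = 0.245). Relative to Myom1, Myom2 was 114, 105 and 118% in knockout-labelled libraries of 3 months and 95.0, 91.4 and 93.8% in controls. At 12 months the ratio was 199 and 265% in knockout-labelled libraries and 165 and 159% in controls, so it too did not overlap at either age. Of the 10 ratios of related genes that were formed, only Myh7b over Myh6 overlapped at 12 months, where the controls were near-identical. At 3 months Myh7 over Myh6, Myom2 over Myom1 and Myom3 over Myom1 were apart, and the other ratios formed there overlapped. Myom3, a low isoform, had 0.861 to 1.08 FPKM in knockout-labelled libraries of 3 months against at most 0.719 FPKM in controls, and 1.71 and 2.22 FPKM at 12 months against 0.775 and 1.0 FPKM. It was tested at 12 months only through the knockout-labelled group.

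Titin, Ttn, had 27.8, 30.7 and 27.2 FPKM in knockout-labelled libraries of 3 months, against 19.9, 34.2 and 30.5 FPKM in controls (0.05, SE 0.19; limma, adjusted p = 0.915). At 12 months titin had 35.7 and 28.4 FPKM in knockout-labelled libraries, both below the controls at 47.2 and 50.2 FPKM (−0.60, SE 0.15; limma, adjusted p = 0.268). Obsl1, an obscurin-like linker of titin and myomesin, had 70.3, 71.6 and 65.8 FPKM in knockout-labelled libraries of 3 months, all above the controls at 45.3, 60.3 and 52.1 FPKM (0.40, SE 0.13; limma, adjusted p = 0.192). At 12 months Obsl1 overlapped, with 58.8 and 31.0 FPKM in knockout-labelled libraries against 45.2 and 50.1 FPKM in controls. Myom1 differed by −0.17 at 3 months, with overlap, and by 0.12 at 12 months, with both knockout-labelled libraries above the controls. The medians of titin and the M-band were 0.07 at 3 months and 0.12 at 12 months, and rescaling to TPM made the second −0.20. Without Myom3 the 12-month median was −0.016, with 2 of 4 above 0.

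The Z-disc class was evenly split at 3 months (8 of 16 tested above 0, median −0.02) and mostly above 0 at 12 months (16 of 17, median 0.28). At 12 months 13 of its 17 genes had both knockout-labelled libraries above both controls, 76.5% of the class, against 27.3% of all genes. The 13 include Neb, and among the 16 genes with both group means at the minimum 12 were so placed (75%, against 27.2% of all such genes) and 15 were above 0, with a median of 0.28. Counting the controls as 1 library or median-of-ratios rescaling left 16 of 17 above 0, whereas rescaling to TPM gave 8 of 17 and a median of −0.035, against −0.27 over all genes. Tcap, the titin cap that joins titin ends at the Z-disc, had the lowest p of the members at 3 months, with 2031, 2581 and 2129.8 FPKM in knockout-labelled libraries against 1423, 1568 and 1284 FPKM in controls. The means were 2247 ± 293 and 1425 ± 142 FPKM (SD, n = 3 each), 1.58-fold apart without overlap (0.65, SE 0.16; limma, adjusted p = 0.118). At 12 months Tcap had 2229.6 and 1701 FPKM in knockout-labelled libraries, against 864 and 860.3 FPKM in controls, a 2.28-fold ratio that did not pass (1.17, SE 0.17; limma, adjusted p = 0.161).

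Csrp3, the muscle LIM protein that binds Tcap, had 1569, 1678 and 1557 FPKM in knockout-labelled libraries of 3 months, against 1271, 1039.8 and 979.7 FPKM in controls (0.55, SE 0.15; limma, adjusted p = 0.144). At 12 months Csrp3 had 1324 and 1841 FPKM in knockout-labelled libraries, against 1299.7 and 1278 FPKM in controls (0.28, SE 0.20; limma, adjusted p = 0.567), the lower of them just above the controls. Synpo2l, an actin-associated Z-disc protein, had 41.5, 41.9 and 51.5 FPKM in knockout-labelled libraries of 3 months, against 30.4, 35.0 and 25.7 FPKM in controls (0.56, SE 0.15; limma, adjusted p = 0.140). It had 58.4 and 48.2 FPKM at 12 months, against 43.3 and 43.7 FPKM in controls (0.28, SE 0.14; limma, adjusted p = 0.456). Neither gene overlapped between the groups at either age.

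Nebl, the cardiac nebulette that binds actin next to the Z-disc, went the other way. It had 30.1, 35.4 and 36.1 FPKM in knockout-labelled libraries of 3 months, all below the controls at 40.7, 42.7 and 39.6 FPKM (−0.27, SE 0.12; limma, adjusted p = 0.275). At 12 months it had 145 and 70.8 FPKM in knockout-labelled libraries, below the controls at 189 and 187 FPKM (−0.88, SE 0.37; limma, adjusted p = 0.405). Its large skeletal-muscle relative Neb had at most 1.28 FPKM in every 3-month library, with overlap, and was not tested there. At 12 months Neb had 2.28 and 2.06 FPKM in knockout-labelled libraries, against 0.483 and 1.02 FPKM in controls (0.87, SE 0.22; limma, adjusted p = 0.260), and it reached the expression minimum through the knockout-labelled group.

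The remaining Z-disc genes were the crosslinker Actn2, the PDZ-LIM proteins Ldb3 and Pdlim5, the small heat shock chaperone Cryab, filamin C (Flnc), Smpx, the calsarcin Myoz2, myopalladin (Mypn) and the actin-binding Xirp1. All of these overlapped at 3 months, between −0.27 (Flnc) and 0.39 (Smpx). At 12 months each was above 0, from 0.04 (Mypn) to 0.47 (Cryab), and Flnc, Smpx and Mypn overlapped while the other 6 did not. Actn2 had 723 and 676 FPKM in knockout-labelled libraries of 12 months, against 523 and 525 FPKM in controls (0.42, SE 0.11; limma, adjusted p = 0.276). Cryab had 1240.0 and 1447 FPKM, against 967 and 969 FPKM in controls (0.47, SE 0.13; limma, adjusted p = 0.298). Smpx lies on the X chromosome.

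Of the 37 members tested at both ages, 6 had groups apart in the same direction at both, 16.2% of them against 8.27% of all genes tested at both. Myh7, Myl2, Tcap, Csrp3 and Synpo2l were higher in the knockout-labelled libraries and Nebl was lower, and 0 members were apart in opposite directions. Within an age 24.7% of all genes were apart at 3 months and 50.3% at 12 months. Rescaling to TPM put the 12-month differences of Myl2 (−0.050), Csrp3 (−0.048) and Synpo2l (−0.035) just below 0, against an all-gene median of −0.27. None of these 6 passed by limma at either age.

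**Figure D2:**
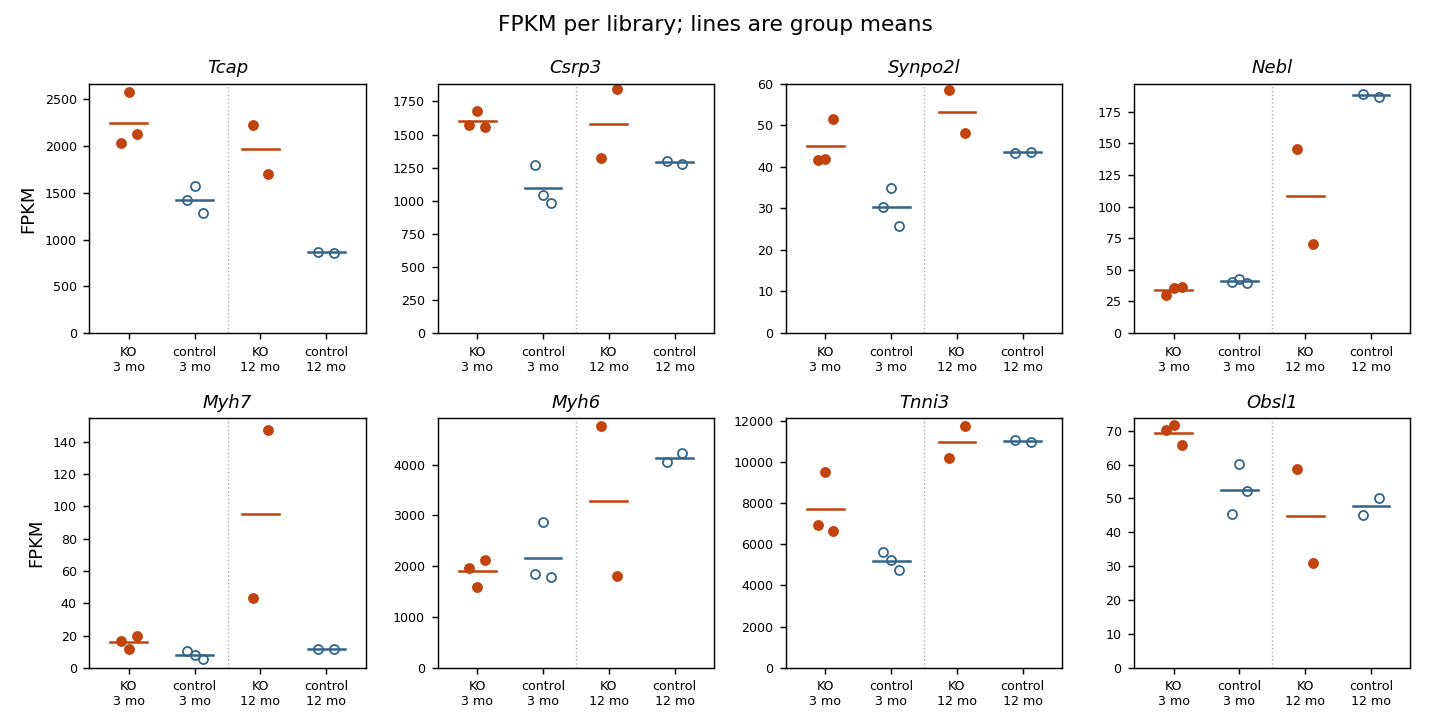
FPKM of 8 members in each library (y axis, linear from 0) by label and age, with lines at group means. Tcap, Csrp3, Synpo2l and Myh7 lie higher and Nebl lower in FPKM in the knockout-labelled libraries at both ages (after rescaling to TPM not Csrp3 or Synpo2l at 12 months), while Myh6, Tnni3 and Obsl1 overlap at 12 months.

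The difference between the ages was tested as the 12-month difference minus the 3-month difference. Of 37 members 2 passed, Lmod2 and Xirp2, with 1.38% of all genes called. At an unadjusted p under 0.05 there were 7 members, against 15.3% of all genes, and the median was −0.02 against −0.08. Lmod2, a leiomodin that elongates thin filaments and lies on chromosome 6 (24597762 to 24605414, plus strand, GRCm38), had 177, 154 and 182 FPKM in knockout-labelled libraries of 3 months, against 197, 222 and 162 FPKM in controls. Those groups overlapped (−0.17, SE 0.15). At 12 months Lmod2 had 375 and 431 FPKM in knockout-labelled libraries, against 205 and 214 FPKM in controls, a 1.93-fold ratio with no overlap (0.94, SE 0.13; limma, adjusted p = 0.133 within that age). The 2 differences were 1.11 apart (SE 0.22; limma, adjusted p = 0.0388).

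Xirp2, an actin-binding repeat protein of Z-discs and intercalated discs on chromosome 2 (67446002 to 67526614, plus strand), showed a similar set of values. It had 24.2, 20.5 and 23.5 FPKM in knockout-labelled libraries of 3 months, against 23.4, 27.8 and 22.9 FPKM in controls, with overlap (−0.11, SE 0.13). At 12 months Xirp2 had 53.7 and 43.0 FPKM in knockout-labelled libraries, against 25.8 and 26.6 FPKM in controls, a 1.85-fold ratio (0.85, SE 0.15; limma, adjusted p = 0.189 within that age). The differences were 0.96 apart (SE 0.20; limma, adjusted p = 0.0454). Both calls were narrow, as Lmod2 passed in 7 and Xirp2 in 6 of 19 alternatives. Among the 10 fits that each left out 1 library, the Lmod2 call held without control replicate 3 of 3 months or knockout replicate 1 of 12 months, and the Xirp2 call held without either 12-month knockout-labelled replicate, and each was lost without any other library. With the 12-month controls counted as 1 library the adjusted p was 0.217 for Lmod2 and 0.236 for Xirp2 (limma).

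Myot, the Z-disc protein myotilin, had the largest log2 difference between the ages of the 37 members but missed the threshold. It had 6.89, 4.78 and 8.87 FPKM in knockout-labelled libraries of 3 months, against 6.99, 7.18 and 5.24 FPKM in controls (0.05, SE 0.20). At 12 months Myot had 17.1 and 64.9 FPKM in knockout-labelled libraries, against 3.86 and 3.75 FPKM in controls, a 10.8-fold ratio of means with the knockout-labelled libraries far from each other (2.84, SE 0.66; limma, adjusted p = 0.252). The differences were 2.79 apart (SE 0.60; limma, adjusted p = 0.0555), and the call was made in 4 of 19 alternatives. Next by p-value were Myh7 (1.70, SE 0.61; limma, adjusted p = 0.204) and Nrap (0.74, SE 0.27; limma, adjusted p = 0.220).

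Nrap, a nebulin-related anchoring protein of intercalated discs and assembling myofibrils, overlapped at 3 months, with 60.3, 48.6 and 60.7 FPKM in knockout-labelled libraries against 59.3, 74.8 and 47.2 FPKM in controls. At 12 months it had 122 and 152 FPKM in knockout-labelled libraries, against 84.7 and 86.7 FPKM in controls (0.66, SE 0.15; limma, adjusted p = 0.246), without overlap. Ratios of Lmod2 and Xirp2 to their relatives were apart at 12 months, but they hold the same Lmod2 and Xirp2 values and are not separate evidence. Lmod3 was 14.4 and 6.33% of Lmod2 in knockout-labelled libraries and 26.7 and 25.3% in controls, and Xirp1 was 114 and 124% of Xirp2, against 191 and 190% in controls. At 3 months both ratios overlapped, with Lmod3 at 20.3 to 23.3% of Lmod2 in knockout-labelled libraries and 19.9 to 20.8% in controls.

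**Figure D3:**
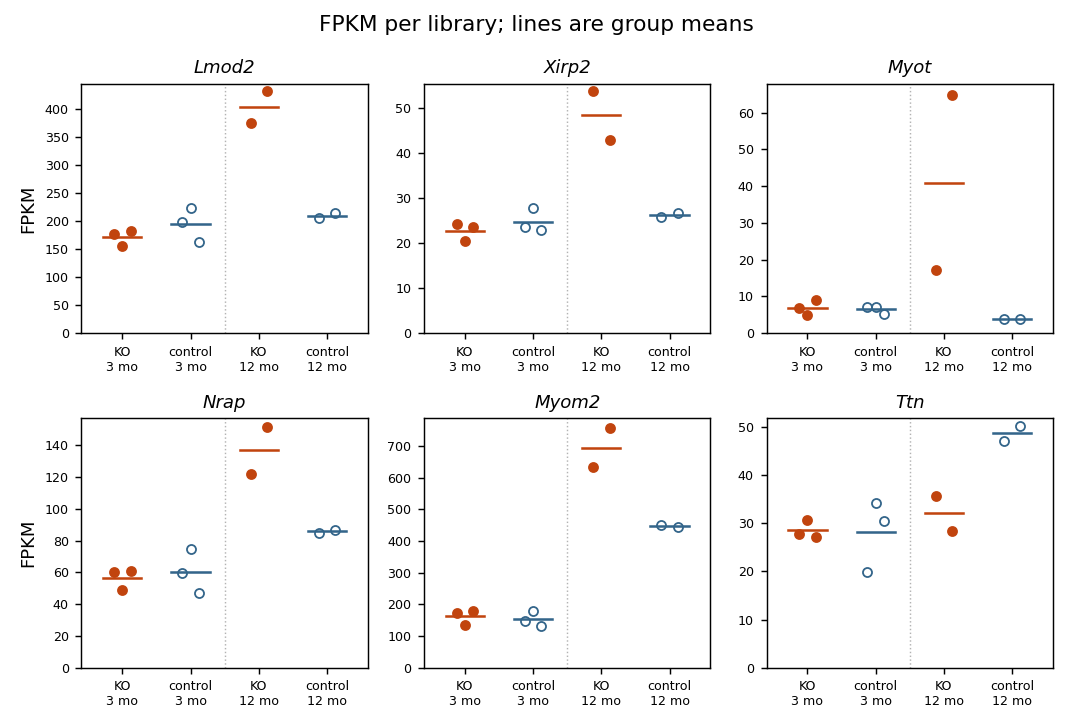
FPKM of 6 members in each library (y axis, linear from 0) by label and age, with lines at group means. Lmod2, Xirp2, Nrap and Myom2 overlap between labels at 3 months and lie higher in both knockout-labelled libraries at 12 months, Myot is far higher in 1 of them, and Ttn lies lower.

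Upstream sequence is shown for 4 members, as the 250 bases before the RefSeq transcription start in GRCm38.p6, read 5′ to 3′ on the gene's own strand. Lmod2 and Xirp2 passed the test between the ages, and Synpo2l and Myh7 were apart at both ages without being called. Csrp3, Myl2 and Nebl were likewise apart at both ages and are not shown. The search covered both strands for the TATA box TATAAA, the M-CAT element CATTCC, the CArG box and the MEF2 motif, and capitals mark a match, none of which overlaps another. Lmod2 is at chr6:24597521-24597770 (plus strand), Xirp2 at chr2:67445752-67446001 (plus), Synpo2l at chr14:20668355-20668604 (minus) and Myh7 at chr14:54994627-54994876 (minus), each the first start listed.
Lmod2: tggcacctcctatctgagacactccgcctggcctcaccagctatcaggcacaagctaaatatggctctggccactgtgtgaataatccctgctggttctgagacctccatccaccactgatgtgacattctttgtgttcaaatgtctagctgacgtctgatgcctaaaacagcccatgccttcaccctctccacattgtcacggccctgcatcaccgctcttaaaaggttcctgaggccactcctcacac
Xirp2: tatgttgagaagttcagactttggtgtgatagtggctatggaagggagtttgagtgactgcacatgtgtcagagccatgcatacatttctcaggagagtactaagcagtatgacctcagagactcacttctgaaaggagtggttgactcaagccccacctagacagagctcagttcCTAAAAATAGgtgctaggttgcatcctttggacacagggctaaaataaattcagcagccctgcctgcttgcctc
Synpo2l: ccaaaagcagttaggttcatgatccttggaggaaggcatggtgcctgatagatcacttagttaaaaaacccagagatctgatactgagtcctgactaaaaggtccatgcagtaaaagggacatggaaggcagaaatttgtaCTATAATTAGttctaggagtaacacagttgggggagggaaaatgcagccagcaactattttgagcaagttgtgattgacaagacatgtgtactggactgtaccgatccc
Myh7: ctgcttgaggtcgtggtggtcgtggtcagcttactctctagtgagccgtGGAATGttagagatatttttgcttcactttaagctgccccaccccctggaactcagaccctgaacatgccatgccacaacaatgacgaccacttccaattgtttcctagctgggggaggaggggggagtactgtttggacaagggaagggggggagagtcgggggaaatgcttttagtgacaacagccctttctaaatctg
Xirp2 holds a MEF2 match whose first base is at −74 and Synpo2l one at −109, Myh7 holds an M-CAT match, as its reverse complement, at −201, and none of the 4 motifs was found in this window of Lmod2. The other listed start of Myh7 held no match, and that of Synpo2l a MEF2 match at −144. At the first start listed, Csrp3 and Myl2 held none of the 4 motifs and Nebl held an M-CAT match at −230. For each of these genes, the bases after that start were not found near the start of an annotated transcript. The Myl2 window (chr5:122092474-122092723) lies well upstream of the GENCODE start at 122100951. Among their other listed starts, Myl2 held a TATAAA match at −216, Nebl a CArG match at −162 and Csrp3 none. Of the 32 members with an entry in the RefSeq table, the MEF2 motif occurred in 6, against 3.01% of all 27025 promoters, the CArG box in 4, against 1.4%, the M-CAT element in 9, against 12.6%, and TATAAA in 1, against 13%. A match is a string of letters and says nothing of binding. Lmod3, Cryab, Tcap, Xirp1, Myom2, Neb and Myot had no entry.

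The 12-month knockout-labelled libraries differed from each other far more than the controls did. Over the 39 members the median gap was 21.5% of the mean between the knockout-labelled libraries and 1.49% between the controls. The gap was wider between the knockout-labelled libraries in 38 members, and 33 members differed by under 5% between the controls while 0 did so between the knockout-labelled libraries. In 10 members the knockout-labelled libraries were at least 1.5-fold apart. Replicate 2 was the lower for Myh6, Myh7b, Actc1, Tmod1, Lmod3, Obsl1 and Nebl and the higher for Myh7, Smpx and Myot. In 12 members they lay on opposite sides of the control mean, in 8 of them with replicate 1 above and replicate 2 below.

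**Figure D4:**
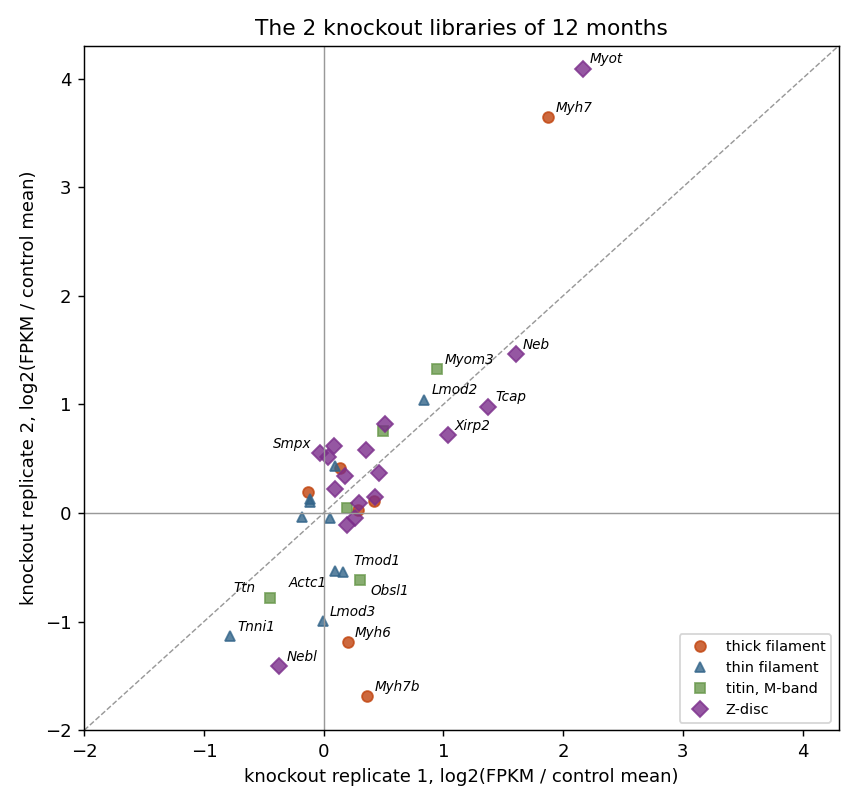
Level of each member in knockout replicate 1 (x axis) and knockout replicate 2 (y axis) at 12 months, as log2 of FPKM over the control mean; symbols give the structural class and the dashed line marks equal values. Myot and Myh7 lie far above the line, whereas Myh6, Myh7b and Nebl lie well below it.

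At 3 months members of a class varied together from library to library with the labels taken out. The correlation of a member with the mean of the rest of its class, over 6 libraries after subtracting group means, had a median of 0.79 in the Z-disc, 0.64 in titin and the M-band, 0.63 in the thick filament and 0.53 in the thin filament. These points share libraries and their scaling, so the values are descriptions. Smpx (−0.59), Neb (−0.44), Actc1 (−0.44), Lmod3 (−0.29) and Lmod2 (−0.24) went against their classes. Csrp3 (−0.01), Myoz2 (0.05), Tpm2 (0.09) and Tcap (0.12) were nearly unrelated to theirs. In the 12-month libraries the medians were −0.80 in the Z-disc, 0.05 in titin and the M-band, −0.999 in the thick filament and −0.03 in the thin filament. With 2 libraries a group, those correlations rest on only 2 free deviations per gene, so they cannot show whether the 3-month pattern was shared.

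The libraries also differed by transcript length. Over the 39 members, the rank correlation of a library's deviation with transcript length was −0.21, −0.50 and −0.09 in the knockout-labelled libraries of 3 months and −0.24, 0.56 and 0.55 in the controls. Over 7056 genes averaging 5 FPKM or more it was −0.32, −0.48 and −0.06 in knockout-labelled libraries and −0.01, 0.52 and 0.37 in controls, with the same sign in each library as over the members. Of the 8 tested members apart and higher at 3 months, Tcap, Tnni3, Csrp3 and Myl2 have transcripts of 889 to 948 bases, while Tmod1, Synpo2l, Obsl1 and Myh7 have transcripts of 3158 to 6230 bases. Nebl, apart and lower, has 8079 bases, and the part of length in those differences was not tested. At 12 months the values were 0.43 and −0.27 in the knockout-labelled libraries and 0.05 and 0.10 in the controls.

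**Figure D5:**
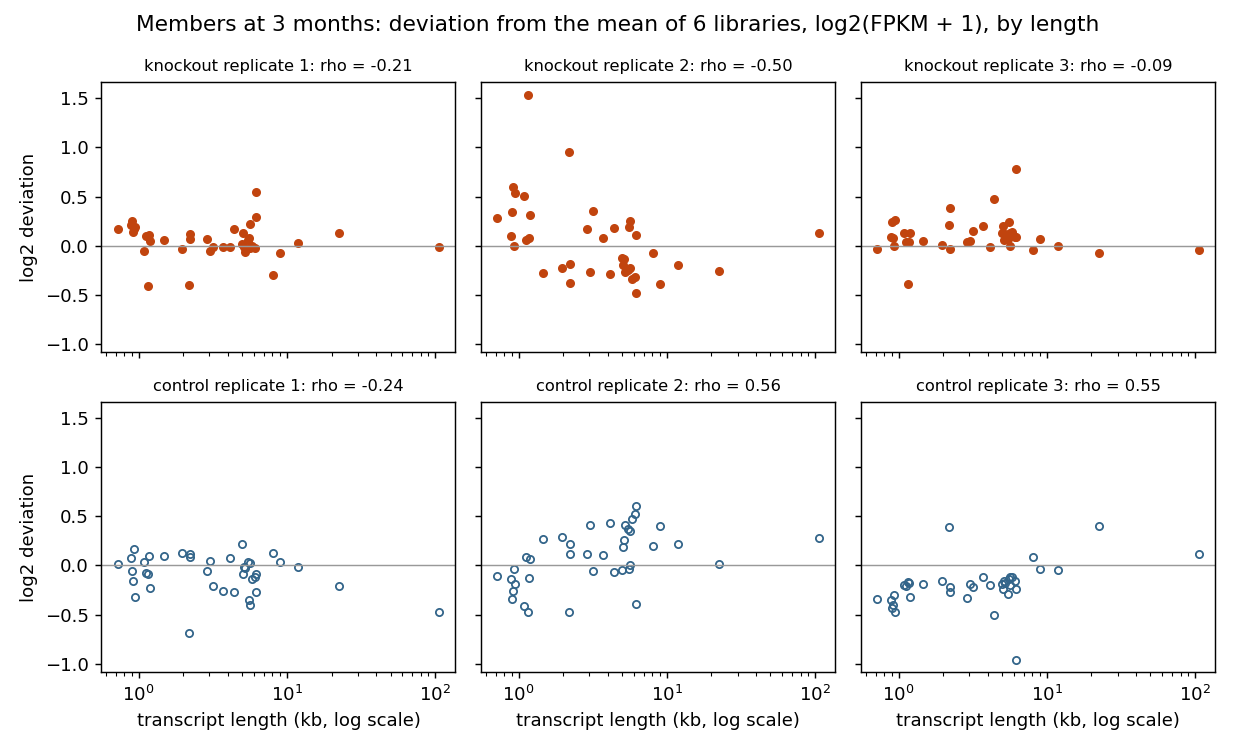
Deviation of each of the 39 members from its mean over the 6 libraries of 3 months (y axis, log2 of FPKM + 1) against its transcript length (x axis, kb, log scale), 1 panel per library. Long members lie low in knockout replicate 2 (rho = −0.50) and high in control replicates 2 and 3 (rho = 0.56 and 0.55).

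As a share of summed FPKM, the members took 8.25, 7.53 and 8.13% in knockout-labelled libraries of 3 months and 7.15, 9.48 and 5.85% in controls. At 12 months they took 8.30 and 8.01% in knockout-labelled libraries and 9.49 and 9.45% in controls, lower in both. The thick and thin filament shares were lower at 12 months (3.71 and 3.74% against 4.15 and 4.11%, and 3.68 and 3.36% against 4.52 and 4.51%). The Z-disc share was higher (0.812 and 0.808% against 0.741 and 0.729%), as was that of titin and the M-band (0.0978 and 0.0941% against 0.0919 and 0.0920%). The Z-disc sum holds Tcap, at 2229.6 and 1701 FPKM in knockout-labelled libraries of 12 months, against 864 and 860.3 FPKM in controls. How far Tcap alone carried the Z-disc share was not tested. Genes of the mitochondrial genome took 28.7 and 24.6% in the 12-month knockout-labelled libraries and 20.8 and 21.1% in controls, and at 3 months 23.8 to 24.9% against 17.3 to 42.0%. Their part in the shares of the members was not tested.

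Sarcomere genes outside the members gave a few calls. Of 44 other filament and Z-disc genes, 30 were tested at 3 months, 22 were above 0 and 2 rose, and 31 were tested at 12 months, 19 were above 0 and 2 rose. Over all genes tested 65.0% were above 0 and 0.746% were called at 3 months, and 51.5% and 0.395% at 12 months. The median difference was 0.16 at 3 months and 0.08 at 12 months. Myl1, a fast-muscle and atrial light chain, had 110.1, 205 and 144 FPKM in knockout-labelled libraries of 3 months, against 33.4, 30.2 and 67.2 FPKM in controls (1.83; limma, adjusted p = 0.0449). The call was lost when control replicate 1, control replicate 2, knockout replicate 2 or knockout replicate 3 was left out. It was also lost after median-of-ratios rescaling, with no filter on low values and with a replicate block. At 12 months Myl1 lay above both controls (191 and 88.2 FPKM, against 60.4 and 65.6 FPKM) and did not pass (limma, adjusted p = 0.386). The light chains among the atrial markers, Myl4 and Myl7, overlapped at 3 months and lay below both controls at 12 months. The part of the atrial markers in Myl1 was not tested. Tnni2 (0.81) and Mybphl (3.08) came next at 3 months and did not pass (limma, adjusted p = 0.134 and 0.150).

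Ankrd1, a titin-associated ankyrin repeat protein of the stressed heart, was higher in the knockout-labelled libraries at both ages. It had 1033, 1115 and 1071 FPKM in knockout-labelled libraries of 3 months, against 696, 583 and 551 FPKM in controls (0.82; limma, adjusted p = 0.0449). That call held in 4 of 14 alternatives. The call was lost without any 1 of the 6 libraries, after rescaling to TPM or by median-of-ratios, with no filter on low values and with a replicate block. At 12 months it had 1787 and 2313 FPKM in knockout-labelled libraries, against 409.8 and 419 FPKM in controls (2.29; limma, adjusted p = 0.0449). The difference between the ages of 1.47 also passed (limma, adjusted p = 0.0129). It did not pass without either 12-month control, with those controls counted as 1 library or with a replicate block. Acta1, skeletal alpha-actin and not analysed here at 3 months, had 455 and 410 FPKM in knockout-labelled libraries of 12 months, against 131 and 127 FPKM in controls (1.73; limma, adjusted p = 0.0356), or 5.55 and 7.74% of Actc1 against 1.70 and 1.66%. The 12-month calls of Ankrd1 and Acta1 were also lost without either control and with the controls counted as 1 library. Both were lost with no filter on low values and with a replicate block, and that of Acta1 also after rescaling to TPM. The skeletal markers are given above, with Acta1 itself making up most of their 12-month sum, and their part in these differences was not tested. Next at 12 months were Tnni2 (−1.51; limma, adjusted p = 0.172) and Mybpc2 (0.60; limma, adjusted p = 0.220), and Tnni2 passed between the ages (−2.32; limma, adjusted p = 0.0103), though not without 12-month control replicate 1.

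Of 29 genes for sarcomere assembly, turnover and muscle transcription, 0 passed within an age by limma, and 6 at 3 months and 8 at 12 months had an unadjusted p under 0.05. The same measure took in 18.2% of all genes at 3 months and 13.6% at 12 months, with 0.746% and 0.395% called. At 3 months 10 were above 0, with a median of −0.04, and at 12 months 16, with a median of 0.14. At 3 months the lowest p-values belonged to Pgm5 (0.60), Klhl40 (0.63), Hspb8 (−0.52) and Lmcd1 (0.31), with limma adjusted p of 0.0625, 0.0767, 0.149 and 0.247. At 12 months they belonged to the ubiquitin ligase gene Trim54 (1.91), the chaperone genes Hspb7 (1.12) and Hspb6 (0.61) and the co-chaperone gene Bag3 (0.70), with limma adjusted p of 0.0777, 0.110, 0.188 and 0.162. Trim54 passed between the ages (1.75; limma, adjusted p = 0.00733), though not without either 12-month control or with those controls counted as 1 library. It had 135, 115 and 133 FPKM in knockout-labelled libraries of 3 months, against 117, 133 and 96.3 FPKM in controls. At 12 months it had 155 and 209.7 FPKM in knockout-labelled libraries, against 46.3 and 48.3 FPKM in controls.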

How the data were processed

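RNA-seq values of 10 mouse heart libraries were used. The authors deposited FPKM values, 1 table per age, per the labels. Per the submitters' processing notes, the tools were Cufflinks 2.1.1, STAR 2.5.1b, TopHat2 2.1.0 and FastQC, and the builds GRCm38 and mm10. What each did, how strand was handled and whether libraries were scaled to each other are not stated. The 12-month table's own name says that outliers were removed, without saying how. Identifiers repeated in 69 rows of the 3-month values were summed. Coordinates and symbols came from GENCODE M21 (GRCm38), in which exons of 13 members overlap another gene, 12 of them on the other strand.

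Genes averaging 1 FPKM or more (12200 at 3 months, 13179 at 12 months, 11580 at both) were fitted on log2(FPKM + 1) with limma 3.58.1 in R 4.3.3, using a mean-variance trend and Benjamini-Hochberg adjustment, and were called at an adjusted p under 0.05. Each age was fitted alone, and an interaction contrast over all 10 libraries gave the difference between the ages. The fit was tested on simulated data. Depth was read from the low values, of which 86.5 to 88.0% were within 0.05 of whole reads at 12 months and 18.7 to 31.3% at 3 months.

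The members and lists were chosen with earlier results of these data known. Library values are given for 19 members, namely those called, the 8 of lowest p per age, the 5 of lowest p between ages, 6 fixed genes and the highest of each class; Lmod3, Myom3, Actn2 and Cryab were added after their values were seen. Replicate numbers carry no stated pairing. Alternatives changed the pseudocount, expression minimum, scaling, trend, a replicate block and each library in turn. Counting the 12-month controls once, and leaving out members that reach the minimum through 1 group, were added after seeing the data.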

Additional observations from a re-analysis of the deposited data

Results flagged for a closer look

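The effect of the label differed between the ages in 2 members, by the test of that difference itself, with 1.38% of all genes called. The 12-month difference of Lmod2 exceeded its 3-month difference of −0.17 by 1.11 on the log2(FPKM + 1) scale (SE 0.22; limma, Benjamini-Hochberg adjusted p = 0.0388), with 2 of 2 knockout-labelled libraries above both controls at 12 months. For Xirp2 the 3-month difference was −0.11 and the gap between the ages 0.96 (SE 0.20; limma, adjusted p = 0.0454), also with 2 of 2 above. The call was kept in 7 of 19 alternatives for Lmod2 and in 6 of 19 for Xirp2, over which the adjusted p ran from 0.0174 to 0.225 and from 0.0177 to 0.302 (limma). The ages differ in library preparation, and the 12-month labels differ in sex-linked expression, so neither can be told apart from age or genotype in these 2 values. Groups of 2 or 3 libraries are too small for a check of single outlying samples.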

How the results depend on the processing

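Depth is unknown at 3 months, 12 months has 2 libraries a group with near-identical controls, and FPKM scaling, transcript length and library preparation set limits on every difference. At 3 months 0 members were called in each of 14 alternatives. At 12 months 0 were called in 11 of 13, with 27 without knockout replicate 1 and 11 without knockout replicate 2 (0 to 27 when 1 library was left out; with 1 knockout-labelled library the spread comes from the controls alone). The count of 2 members called between the ages became 0 with no filter on low values, 1 after rescaling to TPM (Myot), 1 with no trend (Lmod2), 3 with a minimum of 5 FPKM (Lmod2, Xirp2 and Myot), 0 with the 12-month controls averaged and counted once, which was added after seeing the data, and 0 to 7 when 1 library was left out. Calls among all genes ran from 10 to 142 at 3 months (91 as reported), from 0 to 4409 at 12 months (52 as reported) and from 40 to 787 between the ages (160 as reported).

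The replicate numbers are not stated to pair libraries, and deviations of same-numbered libraries correlated by −0.12, −0.46 and −0.14 at 3 months and by −0.01 at 12 months. With the replicate block 0 members were called within an age and 0 between the ages (limma adjusted p = 0.152 for Lmod2 and 0.170 for Xirp2), and calls among all genes were 29, 40 and 55.

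Rescaling to TPM moved the 12-month medians to −0.17 (thick filament), −0.38 (thin filament), −0.20 (titin and M-band) and −0.035 (Z-disc), where the all-gene median was −0.27. Keeping the members with both group means of at least 1 FPKM, which was added after seeing the data, made the titin and M-band median −0.016 and left the others close. A minimum of 5 FPKM made the thin-filament median −0.0077. Leaving out 1 library gave 12-month medians of 0.11 to 0.28 (thick), −0.068 to 0.021 (thin), 0.042 to 0.30 (titin and M-band) and 0.29 to 0.51 (Z-disc). The 3-month medians then ran from −0.0089 to 0.22 (thick), 0.16 to 0.34 (thin), −0.050 to 0.20 (titin and M-band) and −0.12 to 0.074 (Z-disc).

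Of the single-member differences 16 turned sign under at least 1 alternative (5 at 3 months, 8 at 12 months and 3 between the ages), and none of these had passed. Under TPM these were Ttn (−0.050), Myom2 (−0.012) and Myot (−0.045) at 3 months, Myl2 (−0.050), Csrp3 (−0.048) and Synpo2l (−0.035) at 12 months, and Myl2 between the ages (−0.22). Median-of-ratios rescaling turned Ttn (−0.050), Myom2 (−0.012) and Myot (−0.040) at 3 months. With 1 library left out, 3-month values ran from −0.29 to 0.049 (Myh6), −0.17 to 0.20 (Ttn), −0.0066 to 0.21 (Myom2), −0.24 to 0.086 (Nrap) and −0.13 to 0.25 (Myot). At 12 months they ran from −1.19 to 0.20 (Myh6), −0.11 to 0.10 (Tnni3), −0.53 to 0.10 (Actc1), −0.54 to 0.16 (Tmod1) and −0.60 to 0.30 (Obsl1). Between the ages they ran from −1.02 to 0.37 (Myh6), −0.13 to 0.14 (Myl2) and −0.42 to 0.21 (Actc1), with Myl2 also below 0 without control replicate 1 (−0.10), knockout replicate 2 (−0.013) or knockout replicate 3 (−0.017) of 3 months and Actc1 above 0 without control replicate 3 of 3 months (0.020). The cause was not tested.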
